A study of Homo sapiens with 4 samples.

Results

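The 10 genes of the ATF4-CHOP branch of the integrated stress response, ATF4, ATF3, DDIT3 (CHOP), TRIB3, CHAC1, SESN2, DDIT4, ASNS, GDF15 and PPP1R15A (GADD34), were followed in SK-MEL-28, an established human melanoma cell line. They were chosen by gene symbol out of 25268 symbols, and each had 1 row in the expression table. Lentiviral transduction had given the cells either an empty pTRIPZ vector (vector line) or a MYC gene behind a Tet-inducible promoter (here the Tet-MYC line). Both lines were grown with G418, and neither is described as a single clone in the sources used here. RNA-Seq was done on each line without doxycycline (Dox) and after 54 h with Dox, given in the methods as 0.5 μg/ml, the agent that switches on the Tet-inducible promoter. Each of the 4 conditions had 1 library, so differences have no replicate check and are given without p-values.

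In the integrated stress response, kinases that sense misfolded protein, lack of amino acids, double-stranded RNA or lack of heme phosphorylate the initiation factor eIF2. Most translation then slows, while the ATF4 messenger RNA is translated more because of upstream open reading frames in its leader. ATF4 protein, a bZIP transcription factor, then raises the transcription of genes for amino acid supply and of further regulators, among them CHOP. Because the main step is translational, the ATF4 messenger RNA level does not measure ATF4 protein.

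Values are FPKM, fragments scaled to the length of the transcript and to the mapped total of the library, which allows levels to be compared between genes. A change is a difference of log2(FPKM + 0.1), a scale that understates the change of low genes, and a gene was counted as higher or lower from 1.5-fold on. All 10 genes passed the filter of at least 1 FPKM on average, as did 11147 genes in all, although ATF3 reached its mean of 1.30 FPKM through the vector line with Dox and was under 1 FPKM in both libraries without Dox. The approximate depth, read from the steps between very low values, was 34900000 to 41800000 fragments per library, and it gave each change an approximate counting error that leaves out differences between cultures. MYC, the gene meant to be induced, had 58.3 and 54.8 FPKM without and with Dox in the vector line and 76.5 and 87.1 FPKM in the Tet-MYC line. Its log2 change with Dox in the Tet-MYC line was 0.19, short of 1.5-fold. By RT-PCR, the paper reports a raised MYC messenger RNA level with Dox in its MYC-inducible SK-MEL-28 cells. All 8 melanocyte markers were expressed, and 5 of them were at least 1.5-fold lower with Dox in the Tet-MYC line, against 8.85% of all genes. Their summed level was 8433 FPKM without and 4666 FPKM with Dox in that line, against 8578 and 8467 FPKM in the vector line, and S100B (-1.39), TYRP1 (-0.97) and PMEL (-0.86) had the lowest log2 changes there. Of 9 markers of other cell types, LUM and EPCAM averaged at least 1 FPKM, the list summed to 29.0 to 32.7 FPKM, and KRT5 was listed at 0 in every library. EPCAM, an epithelial marker, had 0.726 FPKM without and 2.71 FPKM with Dox in the Tet-MYC line, and it passed the filter only through that library with Dox. The epithelial marker CDH1 (0.194 and 0.121 FPKM) and the keratinocyte marker KRT14 (0.195 and 0.128 FPKM) were lower with Dox in that line, at very low levels. The part of these marker changes in the results below was not tested. In bulk RNA, fewer cells with a transcript and less transcript per cell cannot be told apart.

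The promoter windows of the 10 genes were read first, since ATF4 acts through short DNA motifs. RefSeq windows on GRCh38.p14, from 250 bases before to 50 bases after a transcript start, were given for all 10 genes, 16 windows in all. Both strands were searched for TGATGNAA (CARE, the element bound by ATF4 with C/EBP partners), TGACGTCA (CRE, bound by ATF and CREB proteins), CACGTG (the E box, bound by MYC with MAX and by related factors) and GGGCGG (the GC box, common in promoters). The CARE letters stood in a window of 3 members, ATF3, CHAC1 and ASNS, and in 4.46% of the 27305 genes with a window. The CRE was found in PPP1R15A and in 2.25% of genes, and the E box in ATF4 and in 8.77% of genes. The GC box stood in 7 members and in 48.3% of genes. No CARE, CRE or E box match in these windows overlapped another match. The sites of 30 bases around the first 3 motifs are shown because they hold the letters searched for, each read 5′ to 3′ on the strand of the gene, with the motif in capitals.
ATF3 CARE: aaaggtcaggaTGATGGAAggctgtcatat
ASNS CARE: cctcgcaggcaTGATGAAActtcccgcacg
CHAC1 CARE: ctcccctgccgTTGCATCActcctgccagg
PPP1R15A CRE: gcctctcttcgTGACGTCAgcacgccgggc
ATF4 E box: ggaggagacggtCACGTGgtcgcggcggaa
On GRCh37, the build of the expression table, the whole window around each site had a single exact match on the chromosome and strand of its gene. The positions of the 30-base sites follow from that match, and these sites were not themselves searched for. They lie at chr1:212738547-212738576 on the plus strand (ATF3), chr7:97501770-97501799 on the minus strand (ASNS), chr15:41245449-41245478 on the plus strand (CHAC1), chr19:49375609-49375638 on the plus strand (PPP1R15A) and chr22:39916470-39916499 on the plus strand (ATF4). Counted from the transcript start, the first base of the motif was at -191 in ATF3, -68 in ASNS, -209 in CHAC1, -58 in PPP1R15A and, from the 2 starts of ATF4, -82 and -85. In CHAC1 the motif is read on the opposite strand, so its letters appear reversed and complemented. The sites of ASNS, CHAC1, PPP1R15A and ATF4 lie inside an annotated exon of the same gene in GENCODE, while that of ATF3 lies in none. These matches describe letters in a window and not binding.

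The levels of the 10 genes spanned from under 1 FPKM for ATF3 to 510 FPKM for GDF15. GDF15, a secreted stress cytokine, was the most abundant in 3 libraries, and ATF4 came first in the Tet-MYC line with Dox. DDIT4 and PPP1R15A followed, and they changed places in the vector line with Dox. DDIT3, TRIB3, ASNS, CHAC1, SESN2 and ATF3 kept this descending order in all 4 libraries. Over the 4 libraries the ranges of neighbours in this order overlapped, except those of ATF4 (197 to 303 FPKM) and DDIT4 (96.6 to 114 FPKM) and those of ASNS (6.72 to 21.1 FPKM) and CHAC1 (2.05 to 4.12 FPKM).

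**Figure D1:**
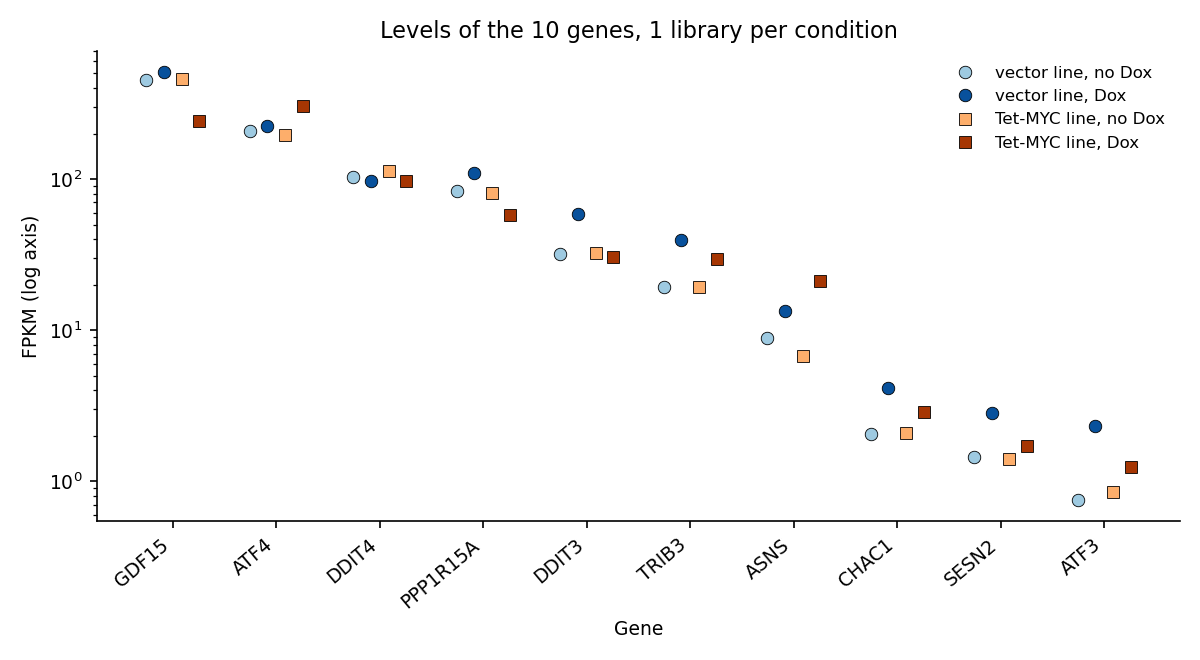
FPKM of the 10 genes on a log axis, ordered by mean level, with 1 point per library: circles for the vector line and squares for the Tet-MYC line, pale without Dox and dark with Dox. The dark red squares of GDF15 (242 FPKM) and PPP1R15A (57.8 FPKM) are the lowest of their genes, and that of ASNS (21.1 FPKM) is the highest.

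More members were higher with Dox in the vector line than in the Tet-MYC line, a difference that was not tested. The members were chosen with earlier results of these data known, so the shares over all genes beside their counts only describe. In the vector line, 6 of 10 were at least 1.5-fold higher with Dox, against 0.709% of all genes, and 0 were lower, against 0.44% of all genes. The 6 were ATF3, TRIB3, CHAC1, SESN2, DDIT3 and ASNS, and the median change of the 10 was 0.74 on the log2 scale, beside 0.01 over all genes. With a pseudocount of 1, ASNS was below 1.5-fold, which left 5 members higher, against 43 of all 11147 genes. ASNS was also below the limit under the 3 other scalings. ATF3 passed the filter only through the vector line with Dox, so its calls here and in the contrasts below are not independent of the filter. With Dox in the Tet-MYC line, 3 of 10 were higher, namely ASNS, ATF4 and TRIB3, against 5.9% of all genes, and GDF15 was lower, against 8.85% of all genes. The median of the 10 there was 0.34, beside -0.03 over all genes. A filter at 5 FPKM, which leaves out ATF3, CHAC1 and SESN2, turned that median to -0.10 and gave 0.39 in the vector line, with 3 of 7 members higher there against 0.334% of all genes. With a pseudocount of 1 the median in the Tet-MYC line was 0.22, and with rescaling to the same sum only ASNS was higher in that line, against 4.71% of all genes. Subtracting the vector change from the Tet-MYC change left ASNS higher, against 5.85% of all genes, and 5 members lower (ATF3, DDIT3, SESN2, GDF15 and PPP1R15A), against 9.72% of all genes, with a median of -0.60. With a pseudocount of 1, SESN2 was no longer past 1.5-fold in this contrast, at -0.48, which left 4 members lower. Between the lines without Dox, 0 members were past 1.5-fold in either direction, against 0.592% of all genes higher and 0.287% lower. Between the 2 libraries with Dox, ASNS was higher in the Tet-MYC line, against 6.5% of all genes, and the same 5 members were lower, against 8.62% of all genes. The last 3 comparisons share libraries with the first 2 and are not separate evidence. All these contrasts are between single libraries, so a difference between cultures and an effect of Dox or MYC cannot be told apart.

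**Figure D2:**
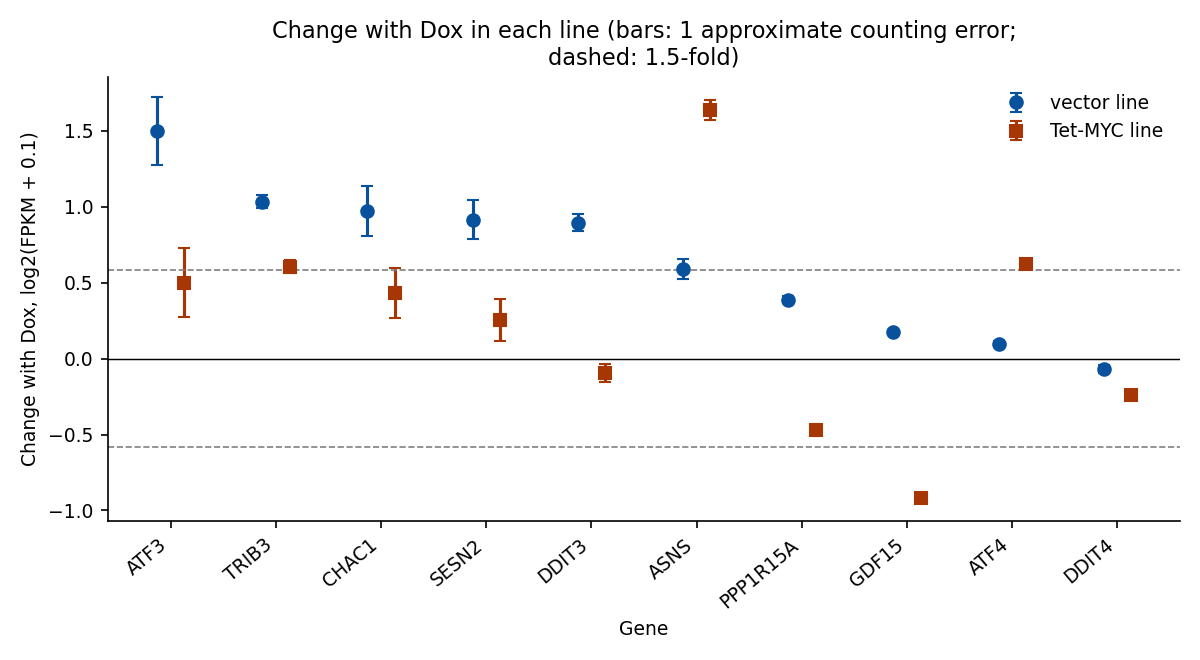
Change of each gene with Dox on the log2(FPKM + 0.1) scale, as blue circles in the vector line and red squares in the Tet-MYC line, ordered from the highest change in the vector line to the lower ones. Bars are 1 approximate counting error, the dashed lines mark 1.5-fold, and for the 5 genes from ATF3 to DDIT3 (0.90 in the vector line) the circle stands above the square, while for ASNS the square (1.64) stands above.

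ATF4, the transcription factor at the head of the branch (chr22:39915700-39918688, plus strand, GRCh37), had 209 FPKM without and 224 FPKM with Dox in the vector line. The Tet-MYC line had 197 FPKM without and 303 FPKM with Dox. The library of the Tet-MYC line with Dox was thus the high one, and the other 3 lay close together. On the log2 scale ATF4 changed by 0.62 in the Tet-MYC line (counting error 0.0174) and by 0.10 in the vector line (counting error 0.0192). The first of these lies just past 1.5-fold and was 0.57 when the libraries were rescaled to the same sum, which is below it.

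ATF3, a bZIP repressor and activator that is switched on early by many stresses (chr1:212738676-212794119, plus strand), had 0.757 FPKM without and 2.32 FPKM with Dox in the vector line. It had 0.854 and 1.25 FPKM in the Tet-MYC line. On the scale with 0.1 added, ATF3 was 2.83-fold higher with Dox in the vector line, the largest change of the 10 genes in that line and place 13 from the top among all genes. Its log2 change in the Tet-MYC line was 0.50, short of 1.5-fold. ATF3 rested on approximately 57.0 to 157 fragments per library, with counting errors of 0.223 and 0.228 for the 2 changes.

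DDIT3 encodes CHOP, the bZIP factor that pairs with C/EBP proteins and is linked to cell death in lasting stress (chr12:57910371-57915520, minus strand). It had 31.7 FPKM without and 59.0 FPKM with Dox in the vector line. In the Tet-MYC line it had 32.3 and 30.3 FPKM, so the vector line with Dox alone was high and the remaining 3 libraries lay close together. The log2 change was 0.90 in the vector line (counting error 0.0547) and -0.10 in the Tet-MYC line (counting error 0.0605), and the difference of the 2 changes was -0.99. Relative to ATF4, DDIT3 stood at 0.151 without and 0.264 with Dox in the vector line, and at 0.164 in the Tet-MYC line without Dox, with its lowest ratio in that line with Dox. DDIT3 shares 355 exon bases with MARS1, the methionyl-tRNA synthetase gene on the opposite strand, and the sources used here do not state whether strand entered the FPKM values. That neighbour, listed as MARS, had 27.2 and 30.8 FPKM without and with Dox in the vector line. It had 28.7 and 39.5 FPKM in the Tet-MYC line. DDIT3 also shares 58 exon bases with MBD6 on the opposite strand and 105 with the gene model ENSG00000285133 on its own strand. The part of these overlaps in the DDIT3 values was not tested.

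TRIB3, a pseudokinase induced by ATF4 and CHOP that restrains AKT and ATF4 itself (chr20:343479-378203, plus strand), had 19.3 FPKM without and 39.7 FPKM with Dox in the vector line. It had 19.4 and 29.6 FPKM in the Tet-MYC line. TRIB3 was the only member past 1.5-fold in both lines besides ASNS, with log2 changes of 1.03 and 0.61 and counting errors of 0.0426 and 0.0431. The second of these lies near the limit and was 0.56 after rescaling to the same sum, and a pseudocount of 1 also put it below. The ratio of TRIB3 to ATF4 was 0.0986 without and 0.0977 with Dox in the Tet-MYC line, whereas it was 0.0924 and 0.177 in the vector line.

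CHAC1, a cytosolic enzyme that breaks down glutathione (chr15:41245160-41248710, plus strand), had 2.05 and 4.12 FPKM without and with Dox in the vector line. It had 2.09 and 2.86 FPKM in the Tet-MYC line. Its log2 changes were 0.97 and 0.43, with larger counting errors of 0.164 and 0.167 because of the low level. SESN2, which encodes sestrin 2, a leucine sensor that holds back mTORC1 (chr1:28586029-28609002, plus strand), had 1.45 and 2.82 FPKM in the vector line and 1.41 and 1.70 FPKM in the Tet-MYC line. The changes of SESN2 were 0.92 and 0.25 (counting errors 0.130 and 0.139). For both genes the vector line with Dox was highest, the Tet-MYC line with Dox second, and the untreated libraries close together. The lower SESN2 and ATF3 levels in the Tet-MYC line depended on the pseudocount, since with 1 in place of 0.1 neither passed 1.5-fold between the libraries with Dox, at -0.50 for SESN2 and -0.56 for ATF3.

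DDIT4 encodes REDD1, another inhibitor of mTORC1, which also answers to hypoxia and glucocorticoids (chr10:74033678-74035794, plus strand). It moved little, with 103 and 97.7 FPKM in the vector line and 114 and 96.6 FPKM in the Tet-MYC line. Its log2 changes were -0.07 and -0.24, with counting errors of 0.0255 and 0.0238. DDIT4 was the only member below 0 in the vector line.

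ASNS, asparagine synthetase, which makes asparagine from aspartate and glutamine and is a classic ATF4 target (chr7:97480989-97501854, minus strand), had 8.88 FPKM without and 13.4 FPKM with Dox in the vector line. In the Tet-MYC line it had 6.72 FPKM without and 21.1 FPKM with Dox, the lowest and the highest of its 4 values. The log2 change of 1.64 in that line, 3.11-fold, was the largest of the 10 genes there and place 36 from the top among all genes (counting error 0.0645). In the vector line the change was 0.59 (counting error 0.0663), on the limit of 1.5-fold, and it was below the limit with a pseudocount of 1 and under all 3 other scalings, down to 0.55. ASNS was also the member that differed most between the untreated lines, at -0.40, place 74 from the bottom of all genes. Against the vector line with Dox, the Tet-MYC line with Dox was higher by 0.65, which is less than the 1.05 of the difference between the 2 changes. GENCODE places a second gene model, ENSG00000284707, on the same strand over 2415 of its exon bases.

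GDF15, a secreted protein of the TGF-beta family that is raised by mitochondrial and other stress (chr19:18485541-18499986, plus strand), had 452 and 510 FPKM without and with Dox in the vector line. It had 458 and 242 FPKM in the Tet-MYC line, so the library of that line with Dox was the low one. The log2 change there was -0.92, to 0.529 of the untreated level, against 0.17 in the vector line, with counting errors of 0.0166 and 0.0140. GDF15 was 2.16 to 2.33 times as abundant as ATF4 in 3 libraries and 0.800 times in the Tet-MYC line with Dox. Its change ranked 324 from the bottom of all genes in the Tet-MYC line.

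PPP1R15A encodes GADD34, the subunit that brings protein phosphatase 1 to eIF2 and so closes the feedback loop of the response (chr19:49375469-49379316, plus strand). It had 83.1 and 109 FPKM without and with Dox in the vector line and 80.3 and 57.8 FPKM in the Tet-MYC line. The untreated libraries lay between the high vector line with Dox and the low Tet-MYC line with Dox. Its log2 changes were 0.39 and -0.47, neither past 1.5-fold, with counting errors of 0.0225 and 0.0256, and their difference of -0.86 was past it. The ratio of PPP1R15A to ATF4 was 0.191 in the Tet-MYC line with Dox, against 0.397 to 0.487 in the other libraries.

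**Figure D3:**
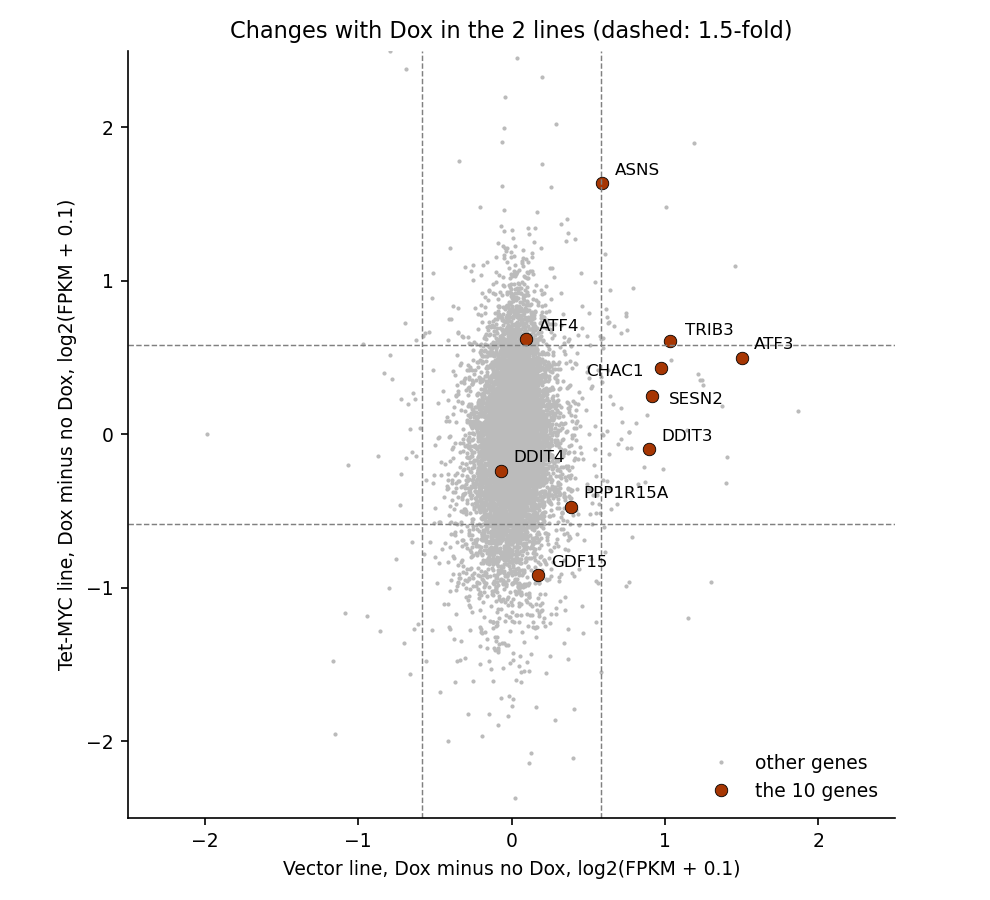
Change with Dox in the vector line (x axis) against the change in the Tet-MYC line (y axis), both on the log2(FPKM + 0.1) scale, for the 10 genes (red, named) and the other genes that passed the filter (grey), with 50 of 11147 genes outside the axes and dashed lines at 1.5-fold. DDIT3 lies to the right at 0.90 and -0.10, GDF15 below at 0.17 and -0.92, and ASNS above at 0.59 and 1.64.

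The 10 genes were then set beside lists of other genes of the pathway, described by counts and medians. Over all genes, 5.9% were higher and 8.85% lower with Dox in the Tet-MYC line, with a median of -0.03. In the vector line 0.709% were higher and 0.44% lower, with a median of 0.01. Upstream of ATF4, 16 genes for eIF2 kinases, eIF2 and its exchange factor eIF2B, and the eIF2 phosphatase had 0 past 1.5-fold in the vector line and a median of 0.02. In the Tet-MYC line 1 was higher and 1 lower, near the shares over all genes, with a median of 0.25. The one higher was EIF2B3, a subunit of the exchange factor, at 26.7 FPKM without and 42.6 FPKM with Dox. EIF2AK3, which encodes PERK, the kinase that senses misfolded protein in the endoplasmic reticulum, was the one lower, with 4.66 FPKM without Dox and a log2 change of -0.82. The other 3 kinases, HRI (EIF2AK1), PKR (EIF2AK2) and GCN2 (EIF2AK4), had changes of 0.25, 0.02 and -0.01 in the Tet-MYC line.

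Among 15 measured bZIP partners, relatives and cofactors of ATF4 and CHOP, NUPR1, a small stress-induced chromatin protein, was higher with Dox in the vector line, at 10.7 and 25.5 FPKM, while its log2 change was 0.36 in the Tet-MYC line. It was the 1 gene of the list past 1.5-fold in the vector line, where the median was 0.04. In the Tet-MYC line 2 were higher and 1 lower, against 5.9% and 8.85% of all genes, with a median of -0.21. BATF3 had 0.902 and 2.09 FPKM without and with Dox there, and it passed the filter only through that library with Dox. The second, ATF5, a close relative of ATF4 and itself translated under stress, had 20.7 and 34.9 FPKM. The lower gene, CREB3, a membrane-bound factor released from the endoplasmic reticulum, had 56.3 and 31.1 FPKM.

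The enzymes that supply amino acids were the list with the highest median in the Tet-MYC line. Of 10 enzymes for serine, glycine, one-carbon, proline, alanine and cysteine synthesis, 6 were higher there (5.9% of all genes) and 0 lower (8.85%). All 10 were above 0, and the median was 0.64, beside -0.03 over all genes. The same list had 0 past 1.5-fold in the vector line and a median of 0.07. CBS, the first enzyme of the route from homocysteine to cysteine, had 2.17 and 4.20 FPKM without and with Dox in the Tet-MYC line. MTHFD2, a mitochondrial folate enzyme, had 38.0 and 71.2 FPKM. In that line the change of ASNS lay above all 10 of these enzymes, whose highest was 0.92.

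Amino acid transporters gave a mixed picture. Of 8 measured, 0 passed 1.5-fold in the vector line, and 2 were higher and 1 lower in the Tet-MYC line, with medians of 0.12 and 0.17. SLC43A1, a carrier of large neutral amino acids, changed by 0.72 in the Tet-MYC line, and SLC1A5, the main glutamine carrier, had 111 and 171 FPKM. SLC1A4, a carrier of alanine, serine and cysteine, was the one lower, at 113 and 71.4 FPKM. Of 18 cytosolic aminoacyl-tRNA synthetases, 0 passed 1.5-fold in the vector line and 3 were higher in the Tet-MYC line (5.9% of all genes). Medians were 0.06 in the vector line and 0.35 in the Tet-MYC line. VARS changed by 0.77 and KARS by 0.65 in the latter.

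Further stress targets of ATF4 moved in both directions. Of 16 listed, 10 passed the filter, and NUPR1 was the 1 of these past 1.5-fold in the vector line (list median 0.04). In the Tet-MYC line 1 was higher and 2 lower, against 5.9% and 8.85% of all genes. ATF5 was higher, and VLDLR (2.11 and 1.16 FPKM), a lipoprotein receptor, and HMOX1 (110 and 63.5 FPKM), heme oxygenase, were lower. The median there was -0.09, and it turned to 0.23 with a filter at 5 FPKM. The genes left out for low levels were not counted as higher or lower. Among them, ADM2 (2.08) and FGF21 (1.32, from 0 to 0.150 FPKM) had positive log2 changes in the vector line. In the Tet-MYC line the changes were 1.56 for STC2, -0.81 for FAM129A and -0.75 for LAMP3. At such low levels these values depend on the 0.1 that is added, and no counting error is given for them. Of 6 measured cell death genes linked to CHOP, 0 passed 1.5-fold in either line, and BCL2L11 (BIM) had the highest change, 0.58 in the Tet-MYC line. BCL2L11 was past 1.5-fold, and higher, in the difference of the 2 changes (0.70) and between the libraries with Dox (0.70). In the vector line the changes of the 6 genes lay between -0.12 and 0.10. A link of these values to DDIT3 was not tested.

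Neighbouring stress programmes were read for comparison. The 18 endoplasmic reticulum chaperone and degradation genes of the ATF6 and XBP1 branches had 0 past 1.5-fold in either line. Their vector median was -0.03 and their Tet-MYC median -0.28, beside 0.01 and -0.03 over all genes. In the Tet-MYC line 17 were below 0. HSPA5 (BiP), the main chaperone of that compartment, changed by -0.09 there and 0.01 in the vector line. Of 12 mitochondrial chaperones and proteases, 5 were higher and 0 lower in the Tet-MYC line, against 5.9% and 8.85% of all genes. The median there was 0.43, and 0 passed 1.5-fold in the vector line (median 0.03). TRAP1 had 59.9 and 152 FPKM and HSPD1 had 586 and 1085 FPKM without and with Dox in the Tet-MYC line. Of 13 measured p53 target genes, 0 were higher and 4 lower in the Tet-MYC line, against 5.9% and 8.85% of all genes. The median there was -0.23, and CDKN1A (13.7 and 3.03 FPKM) and TP53INP1 (1.53 and 0.661 FPKM) fell most. PLK3 was next to CDKN1A between the libraries with Dox, at -0.94. The mean of the list in the Tet-MYC line was -0.44. The list had 0 past 1.5-fold and a median of 0.04 in the vector line, where GADD45A, with 74.0 and 102 FPKM, had the highest change of 0.47.

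The genes whose 4 levels ran most like those of DDIT3, ASNS and ATF4 were sought among 7473 genes averaging at least 5 FPKM, by the root mean square distance over the 3 log2 differences from the untreated vector line. This measure rests on 4 libraries and describes likeness only. Nearest to DDIT3 were EGR1 (distance 0.0947), RAB8B (0.122) and ISG15 (0.189). EGR1 had 13.4, 22.6, 14.2 and 13.3 FPKM in the vector line without and with Dox and the Tet-MYC line without and with Dox, so the vector line with Dox was again the only high library. Nearest to ASNS were SNHG12 (0.266), YDJC (0.299) and TRAP1 (0.348), at larger distances. ATF4 had much closer neighbours in PDF (0.0133), DPH7 (0.0168) and BCAT2 (0.0236).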

How the data were processed

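The table that the authors deposited holds FPKM values by gene symbol, 1 column per library, in 27032 rows. The submitters' processing notes name TopHat2 2.0.14, Cufflinks, hg19 and GRCh37, while the gene annotation and the use of strand are not given in the sources used here. Of the rows, 1 without a name was dropped, and 609 symbols with several rows were summed. FPKM values are not counts and each condition had 1 library, so no model was fitted and no test was made. Simulated data with counting noise only, and no differences between cultures, were used to check the 1.5-fold call on set 2-fold changes in the Tet-MYC comparison. The other calculations were not tested in this way.

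Depth came from 91 genes whose low values were whole multiples of 1 step (up to 12 steps, tolerance 1.2%), with transcript lengths from GENCODE release 44 on GRCh37. The quartiles over these genes for the untreated vector line were 32800000 and 40700000 fragments. Counting errors and gene positions use the same annotation.

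The members, the lists and the rule for named genes were chosen with earlier results of these data known. Named are all 10 members, MYC, for each list and comparison the 2 highest and the 2 lowest genes past 1.5-fold, and the 3 genes most like DDIT3, ASNS and ATF4. Other genes named from the lists (EIF2AK1, EIF2AK2, EIF2AK4, HSPA5, GADD45A) were chosen after their values were seen. Also named outside this rule are LUM, KRT5, CDH1 and KRT14 among the markers, MARS and MBD6 as neighbours of DDIT3, and the stress targets of ATF4 under a mean of 1 FPKM. Alternatives tried were a pseudocount of 1 or 0.01, dropping the filter or setting it at 5 FPKM, 3 other scalings, leaving out symbols with several rows, a 2-fold limit, and means for medians. Calculations used pandas 2.3.3 and numpy 2.4.6 under Python 3.11.15, with figures from matplotlib 3.10.9.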

Additional observations from a re-analysis of the deposited data

Results flagged for a closer look

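DDIT3, GDF15 and PPP1R15A had changes with Dox of opposite sign in the 2 lines, and the difference was not tested, since each condition had 1 library. For DDIT3 the change in the Tet-MYC line minus that in the vector line was -0.99 on the log2 scale, from -0.10 and 0.90, and the first of these is within 2 of its counting errors of 0. For GDF15 it was -1.09, from -0.92 and 0.17. For PPP1R15A it was -0.86, from -0.47 and 0.39.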

How the results depend on the processing

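No paired analysis was possible because there was 1 library per condition, and for the same reason no library could be left out. Of the values of single members under the alternatives, 374 moved by less than 0.11 on the log2 scale, the robust SD over all genes between the untreated lines, and 11 moved by more. The filter settings and leaving out symbols with several rows could not move these values, since each member had 1 row. The 374 thus include values that were fixed in advance. Signs turned only for values near 0, those of DDIT3, TRIB3, CHAC1 and GDF15 between the untreated lines and of DDIT4 between the libraries with Dox. In what follows, comparisons are the change in the Tet-MYC line, the change in the vector line, their difference, and the Tet-MYC against the vector line with Dox. With a pseudocount of 1, the median of the 10 genes was 0.22, 0.59, -0.45 and -0.46 in that order, and 3 were lower in the last, against 6.02% of all genes. With a filter at 5 FPKM, which leaves 7 of the 10 genes, the medians were -0.10, 0.39, -0.43 and -0.42, with 3 higher in the vector line (0.334% of all genes) and 3 lower in each of the last 2 comparisons (7.84% and 7.63%). That filter gave the other stress targets of ATF4 a median of 0.23 in the Tet-MYC line, -0.16 for the difference and -0.24 between the libraries with Dox, and no filter gave them -0.59 and -0.51 in the last 2. Rescaling to the same sum left 1 member higher in the Tet-MYC line (4.71% of all genes). At 2-fold, 1 member was higher and 0 lower in the Tet-MYC line (1.05% and 2.05% of all genes), 2 were higher in the vector line (0.251%), 2 were lower in the difference (2.42%), and 0 were higher and 1 lower between the libraries with Dox (1.18% and 2.07%). Taking means instead of medians gave 0.23, -0.42 and -0.44 for the 10 genes in the Tet-MYC line, the difference and the libraries with Dox. In the same order it was -0.44, -0.48 and -0.37 for the p53 targets. For the last 2 of these it was -0.21 and -0.20 for the other stress targets and 0.45 and 0.48 for the mitochondrial chaperones, and it was -0.061 for the bZIP partners in the Tet-MYC line. The causes of these shifts were not tested beyond the genes each setting leaves in.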

Other observations

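The 6 stress targets of ATF4 under a mean of 1 FPKM are given here as values. ADM2, a secreted peptide gene, had 0.147 FPKM without and 0.940 FPKM with Dox in the vector line and 0.170 and 0.225 FPKM in the Tet-MYC line. FGF21, a metabolic hormone induced by ATF4, was listed at 0.150 FPKM in the vector line with Dox and at 0 in the other 3 libraries. STC2, a secreted glycoprotein gene, had 0.137 and 0.249 FPKM in the vector line and 0.0975 and 0.482 FPKM in the Tet-MYC line. INHBE had 0.0835 and 0.140 FPKM in the vector line and 0.126 and 0.0934 FPKM in the Tet-MYC line. LAMP3 had 0.231 and 0.216 FPKM in the vector line and 0.242 and 0.104 FPKM in the Tet-MYC line, and FAM129A had 1.02 and 1.18 FPKM and 0.967 and 0.508 FPKM. The library that was highest differed between these genes, with ADM2, FGF21, INHBE and FAM129A highest in the vector line with Dox, STC2 in the Tet-MYC line with Dox and LAMP3 in the Tet-MYC line without Dox.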
